A study of Mus musculus with 9 samples.

Results

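Clone 1 is a Sox10 knockout line expanded from a CRISPR-edited population of BG2 cells, and its transcripts were compared with those of wild-type BG2 cells, the control. BG2 cells were derived from an endpoint mammary tumour of the MMTV-NIC mouse model, in which the MMTV promoter drives the oncogene Neu and Cre recombinase from 1 transcript in mammary epithelium. The comparison used 6 of the 9 libraries of the series, 3 of clone 1 and 3 of the control, and all 24594 genes in the deposited table. Of these genes, 13928 passed the filter on low counts and were tested. The other 3 libraries came from a separate Sox10 knockout line, clone 2, and served to estimate the spread and to ask where clone 1 stood apart.

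Each group consisted of 3 technical replicates. The control was the wild-type bulk population, whose library names carry the letters NTC. Both clones carried the labelled genotype Sox10 knockout, made with guides to exon 3 of the Sox10 reading frame, and all groups shared the MMTV-NIC background and the labelled cell type, mammary epithelial. No group was a clone of wild-type cells, so differences that come from the knockout and differences that come from growing a line out of a few cells cannot be told apart. The labels do not say at which step the replicates parted, so each p-value measures only the spread between these libraries.

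SOX10 is a transcription factor of the high-mobility-group family that binds DNA in the minor groove. It is best known for specifying neural crest cells, Schwann cells and melanocytes, and in the mammary gland it marks progenitor-like epithelial cells. Mammary epithelium has a luminal layer, which carries keratins 7, 8 and 18 and hormone receptors, and a basal layer, which contracts and builds basement membrane. Cells that leave the epithelial state give up tight junctions and take up vimentin, fibronectin and other products of mesenchymal cells.

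Libraries held 65805296 to 83282841 counts. Values are given as CPM, in which each count is divided by its library total after TMM scaling for composition, with mean ± SD over 3 libraries. The first principal component of all 9 libraries took up 85.4% of the variance and separated control and knockout libraries, and replicate 1 stood apart from replicates 2 and 3 within each group. Sox10 (Entrez 20665, GRCm38 chr15:79154913-79164490) had 241, 289.8 and 322 CPM in the control libraries and 0, 0.0787 and 0 CPM in those of clone 1. All 3 clone 1 libraries lay far below all 3 control libraries. The fitted log2 difference was -13.21 ± 0.29 (adjusted p = 7.46e-12, edgeR quasi-likelihood test with Benjamini-Hochberg adjustment), and clone 1 was 10108-fold lower (95% counting interval 4644 to 27545). Intervals of this kind cover counting error only, and a mean below 0.0142 CPM in clone 1 rests on fewer than 3 counts over the group.

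Marker lists of the labelled cell type and of others were summed in each library. Of 11 tested luminal markers 8 fell and 2 rose, and the list summed to 6064 to 7218 CPM in the control and 2057 to 2127 CPM in clone 1, where the luminal genes Cldn3 and Foxa1 had no count. Of 9 tested basal and myoepithelial markers 7 rose, and their sum was 10.5 to 13.1 CPM in the control and 91.8 to 93.2 CPM in clone 1. All 7 tested fibroblast markers of a list of 12 rose, and their sum went from 377 to 414 CPM up to 1101 to 1176 CPM, while Lum, Pdpn, Thy1 and Fap had no count in clone 1. Immune markers summed to 7.37 to 12.5 CPM in the control and 9.63 to 11.6 CPM in clone 1, with markers that include Ptprc, Cd3e, Cd4, Cd52, Ms4a1 and Tyrobp at 0 in clone 1. The Schwann and neural crest list, which holds Sox10 itself, summed to 351 to 444 CPM and 28.2 to 31.8 CPM. In bulk RNA, fewer cells of a type and less RNA per cell cannot be told apart.

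In all, 10653 of 13928 tested genes differed between clone 1 and the control, which is 76.5% of those tested at an adjusted p under 0.05. Of all tested genes, 37.9% were higher and 38.6% were lower in clone 1. At least 2-fold differences were as common in both directions, with 16.3% higher (2267 genes) and 16.3% lower (2266 genes). The median log2 fold change over all tested genes was 0.0025. Against clone 2, clone 1 was higher in 3827 and lower in 4191 of the 13928 tested genes. Counts for any gene list below are to be read against these shares and counts. Every gene said to have risen or fallen passed the test against the control.

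Genes of iron and metal handling and of the extracellular matrix were among the 12 largest gains in CPM, a scale that is not corrected for transcript length. Fth1, the heavy chain of the iron store ferritin, had 6901, 7702 and 8168 CPM in the control libraries and 22556, 24478 and 24364 CPM in clone 1. The groups did not overlap, and Fth1 was 3.13-fold higher in clone 1 (log2 fold change 1.65 ± 0.083, adjusted p = 7.24e-09, edgeR). Cp, ceruloplasmin, a copper protein that oxidises iron, rose from 564 ± 6.03 to 2759 ± 131 CPM. Mt1, a metallothionein that binds zinc and copper, had 111, 142 and 160.4 CPM in the control and 2116, 2301 and 2357 CPM in clone 1. Its neighbour Mt2 had 89.98, 97.4 and 107 CPM and 2049, 2121 and 2124 CPM in the same libraries. Both metallothioneins were higher in every clone 1 library than in any control library, by 16.2-fold for Mt1 and 21.3-fold for Mt2. The iron exporter gene Slc40a1, which encodes ferroportin, had 6.94 ± 0.855 CPM in the control and no count in clone 1 or clone 2, at least 493-fold lower in clone 1.

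Other large gains were in secreted and surface proteins. Fn1, fibronectin, had 74.96, 87.01 and 103 CPM in the control libraries and 2862, 3308 and 3208 CPM in clone 1. Every clone 1 library exceeded every control library, and the difference was 35.2-fold (log2 5.14 ± 0.15, adjusted p = 6.6e-11, edgeR). Sparc, a collagen-binding glycoprotein, rose from 96.3 to 1785 CPM, and Aebp1, which binds fibrillar collagen, rose from 88.3 to 1724 CPM. Lrp1, an endocytic receptor for proteases and lipoproteins, rose from 208 to 1812 CPM. Psap, whose product is cut into activators of lysosomal sphingolipid breakdown, rose from 592 to 2193 CPM. Ly6a, the Sca-1 surface antigen of many progenitor cells, rose from 134 to 1474 CPM and stood above its clone 2 level of 534 CPM. Vim, vimentin, rose from 906 to 3283 CPM.

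The largest losses in CPM were in keratins, adhesion proteins and abundant household transcripts. Krt7, a keratin of simple epithelia, had 3459, 3902 and 3996 CPM in the control libraries and 0.546, 0.420 and 0.502 CPM in clone 1. Its clone 1 level was 7817-fold below the control (log2 -12.92 ± 0.13, adjusted p = 6.28e-14, edgeR). The other luminal keratins Krt8 and Krt18 fell 3.60-fold and 4.82-fold and were still at 666 and 480.5 CPM. Itga3, the laminin-binding integrin alpha3, fell from 2005 to 418 CPM. Thbs1, the matricellular protein thrombospondin 1, fell from 2188 to 342 CPM. Emp1, a small epithelial membrane protein, fell from 1476 to 304 CPM, and Anxa1, annexin A1, fell from 2029.9 to 824 CPM. Actb, cytoplasmic beta-actin, fell from 4103 to 2504 CPM while its clone 2 level was 3913 CPM, so a common reference transcript differed between these lines. Serinc3 fell from 1742 to 332 CPM, Eef1a1 from 8619.7 to 6510.4 CPM and Hsp90ab1 from 5126 to 3722 CPM. Eno1b fell from 3293 to 1583 CPM, but it is a near-identical copy of Eno1, so reads of that pair cannot be assigned with certainty. Eef1a1, Actb, Hsp90ab1, Fth1 and the keratins also have processed pseudogenes that could take or give reads.

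**Figure D1:**
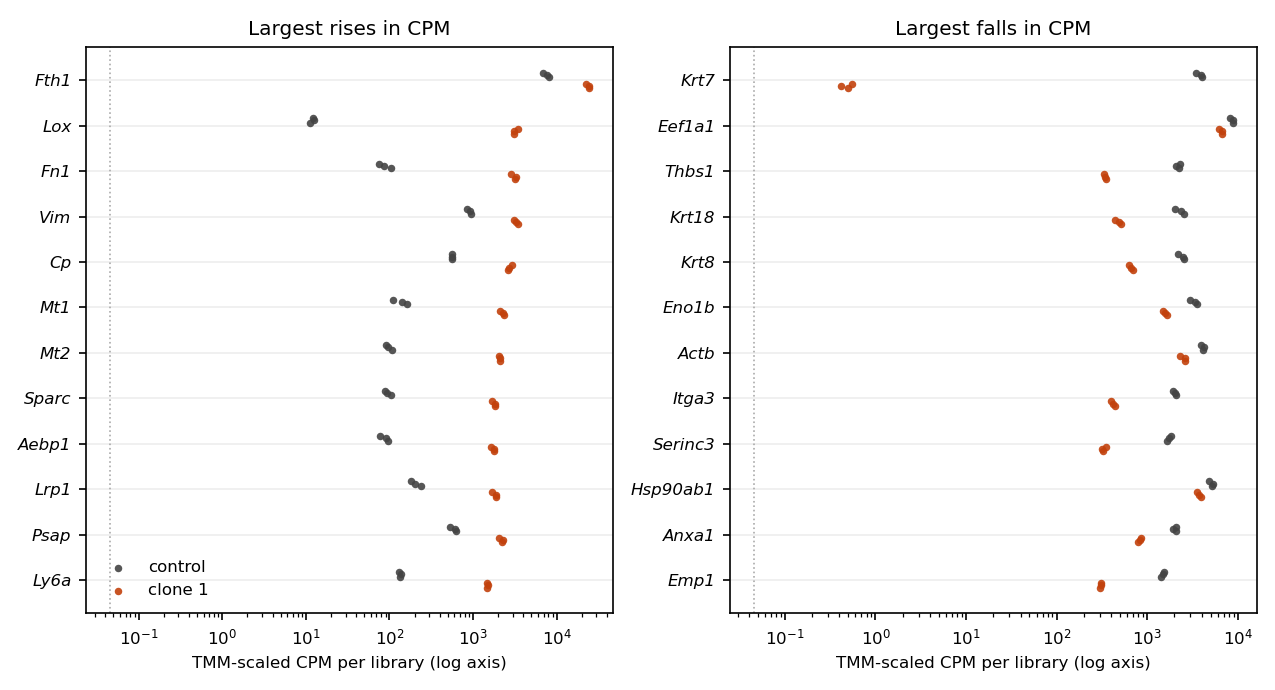
TMM-scaled CPM (log axis) of the 12 genes with the largest rise and the 12 with the largest fall in mean CPM, with 1 point per library for the control (grey) and clone 1 (orange). The dotted line marks 3 counts in the shallowest library. Points of the groups are separate for all 24 genes, and Krt7 in clone 1 lies near 0.489 CPM against 3786 CPM in the control.

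Among genes with at least 5 CPM in the control and more than 3 counts in both groups, the 10 largest folds in each direction were also listed. Risers besides Lox and Fn1 included the matrix genes Efemp1, a fibulin (5.34 to 805 CPM), Vcan, the proteoglycan versican (6.72 to 404 CPM), and Col6a2 (7.10 to 353 CPM). Sod3, the extracellular superoxide dismutase, rose from 8.54 to 793 CPM, and Il1rn, the interleukin 1 receptor antagonist, rose from 14.4 to 694 CPM. Crabp2, which carries retinoic acid to the nucleus, rose from 7.23 to 267 CPM. The receptor phosphatase gene Ptprg rose from 5.61 to 177 CPM and the neuronal pentraxin receptor gene Nptxr from 6.28 to 302 CPM. Fallers were led by Epcam, the epithelial adhesion molecule, with 647, 666 and 666 CPM in the control libraries and 0.0607, 0.0131 and 0.0287 CPM in clone 1. No clone 1 library came near the control, and the difference was 19982-fold lower (95% counting interval 9698 to 49702). Wfdc2, a secreted protein of epithelial surfaces, had 579, 660.3 and 690.3 CPM in the control and 0.0910, 0.0394 and 0.0573 CPM in clone 1, 10529.5-fold lower. Claudin 7 (Cldn7, 235.7 to 0.0430 CPM) and claudin 2 (Cldn2, 51.1 to 0.0175 CPM), the recycling-endosome gene Rab11fip4 (215 to 0.0191 CPM) and the bicarbonate-transporter-family gene Slc4a11 (235 to 0.0875 CPM) were also in the list.

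In 88 genes, leaving out predicted models, clone 1 had no count in any library while the control mean was at least 5 CPM. The reverse, no count in the control and at least 5 CPM in clone 1, held for 3 genes. The file held 24594 genes, predicted models included, and at least 2-fold differences were balanced, with 2267 genes higher and 2266 lower. The control was a bulk population and clone 1 a line grown out of a few cells, so zeros in the 2 groups are not like measures. The cause of the uneven zeros was not tested. Among the lost transcripts were the glycosyltransferase gene Galnt3 (73.1 CPM in the control), the tetraspanin gene Tspan7 (35.9 CPM) and the GTPase-activating protein gene Arhgap28 (21.1 CPM). Only 3 of the 88 had at least 5 CPM in clone 2 as well as in the control, namely Slc35g1, Cdcp1 and Hebp1, which are described with the genes set apart in clone 1.

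Promoters of a few of these genes are shown because they carried one of the motifs searched and belonged to the genes with the largest changes. Each is the 250 bases before the first listed RefSeq start of the gene, GRCm38.p6, plus strand, 5′ to 3′. In the first 3, capitals mark the E-box CACCTG on either strand, the core sequence that SNAI and ZEB repressors bind in epithelial promoters. Epcam (chr17:87635729-87635978) held it at positions -187 and -19 from the start, Krt7 (chr15:101412153-101412402) at -44 and Wfdc2 (chr2:164562465-164562714) at -150. In the last pair, capitals mark TGCACNC or TGCGCNC on either strand, the core of the metal response element that the zinc-sensing factor MTF1 binds. Mt1 (chr8:94178839-94179088) held 1 match at -23, and Mt2 (chr8:94172368-94172617) held 3 at -223, -128 and -50. Matches beyond these 250 bases were not listed, so the numbers do not describe whole promoters.
Epcam: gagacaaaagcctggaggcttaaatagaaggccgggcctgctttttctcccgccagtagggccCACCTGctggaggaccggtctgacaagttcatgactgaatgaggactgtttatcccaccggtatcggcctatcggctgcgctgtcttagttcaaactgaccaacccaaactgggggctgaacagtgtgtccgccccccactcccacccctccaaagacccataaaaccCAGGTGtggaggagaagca
Krt7: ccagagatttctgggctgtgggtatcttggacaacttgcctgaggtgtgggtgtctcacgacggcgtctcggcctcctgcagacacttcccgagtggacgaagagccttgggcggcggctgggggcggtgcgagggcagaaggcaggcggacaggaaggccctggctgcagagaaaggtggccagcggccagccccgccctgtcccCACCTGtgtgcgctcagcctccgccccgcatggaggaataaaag
Wfdc2: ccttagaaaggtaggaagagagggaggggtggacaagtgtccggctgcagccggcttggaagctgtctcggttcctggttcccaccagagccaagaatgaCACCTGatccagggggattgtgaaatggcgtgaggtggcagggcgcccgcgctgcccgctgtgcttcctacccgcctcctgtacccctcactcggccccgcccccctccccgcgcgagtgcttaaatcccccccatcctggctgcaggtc
Mt1: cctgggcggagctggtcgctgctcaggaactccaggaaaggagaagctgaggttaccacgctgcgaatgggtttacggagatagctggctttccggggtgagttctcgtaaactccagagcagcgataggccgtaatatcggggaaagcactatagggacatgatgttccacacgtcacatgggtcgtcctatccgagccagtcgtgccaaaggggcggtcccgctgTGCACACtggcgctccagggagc
Mt2: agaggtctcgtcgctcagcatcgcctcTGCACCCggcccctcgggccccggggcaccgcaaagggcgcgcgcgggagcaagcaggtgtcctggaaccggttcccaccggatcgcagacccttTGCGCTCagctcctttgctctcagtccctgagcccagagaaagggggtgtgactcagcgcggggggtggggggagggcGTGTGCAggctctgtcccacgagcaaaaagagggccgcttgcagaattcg

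The E-box CACCTG was found in 17.8% of the 300-base windows (250 before to 50 after the start) of all 10997 tested genes with a promoter sequence. It was found in 18.0% of 1683 promoters of genes at least 2-fold higher in clone 1 and in 26.6% of 1737 promoters of genes at least 2-fold lower. Within promoters poor in CG pairs the share was 20.5% of all and 28.3% of the lower genes, and within promoters rich in CG pairs it was 15.7% of all and 25.3% of the lower genes. In the same windows, the SOX-type motif ACAAAG was in 13.9% of all promoters, 16.2% of the higher and 16.0% of the lower genes. Its relative ACAATG was in 7.23%, 7.84% and 7.83%. The AP-1 motif TGACTCA was in 3.88%, 5.41% and 5.41%, the TEAD motif GGAATG in 12.4%, 13.7% and 13.8%, and the E-box CACGTG of MYC-type factors in 9.93%, 9.45% and 7.89%. The metal motif, chosen after the metallothionein values were seen, was in 35.2% of all promoters, 34.6% of the higher and 31.8% of the lower genes. A match is a string of letters in a window and shows no binding.

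Most listed matrix glycoproteins rose, while collagens were split. In the list of fibrillar and network collagens, 13 of 26 tested members rose, 11 fell and 2 did not pass the test, with a median log2 fold change of 0.57. Col6a1 and Col6a2, chains of the beaded-filament collagen VI, rose from 25.3 to 760.1 CPM and 7.10 to 353 CPM. Col5a1, which sets the diameter of collagen fibrils, rose from 57.1 to 1204 CPM. Col4a4, a basement membrane chain, fell from 6.55 to 0.101 CPM. Among 40 matrix glycoproteins, proteoglycans and cross-linkers, 30 rose and 7 fell (median 1.499). Plod2, a lysyl hydroxylase that prepares collagen for cross-linking, rose from 0.657 to 24.8 CPM, whereas Tnc, tenascin C, was among those that fell. Fibroblast markers moved with these genes, as given above, and their part in the result was not tested.

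In the list of integrins and laminins, which also holds the nidogen genes Nid1 and Nid2, more members fell than rose. Of 25 tested, 7 rose and 14 fell (median -0.43). By symbol, integrins alone were nearly even, with 8 higher and 10 lower of 23 (median 0.10). Laminin symbols counted 3 higher and 5 lower of 10 (median -0.39). Lama4, a laminin alpha chain, fell from 65.6 to 0.151 CPM. Itgb6, an epithelial integrin that activates latent TGF-beta, fell from 8.17 to 0.0447 CPM, while Itgb7, mostly a leukocyte subunit, rose from 0.203 to 10.6 CPM. Of 36 matrix proteases and inhibitors, 17 rose and 16 fell. Mmp14, a membrane-bound collagenase, rose from 1.42 to 74.3 CPM and Mmp28 from 0.859 to 45.9 CPM, while Mmp10, stromelysin 2, fell from 7.49 to 0.0795 CPM. Adamts2, which trims procollagen, rose from 0.849 to 76.6 CPM. The inhibitor genes Serpine2 and Serpinb5 fell, Serpine2 from 17.6 to 0.00875 CPM and Serpinb5, which encodes maspin, from 31.6 to 0.284 CPM. By symbol, however, 20 of 35 tested serpins rose and 7 fell (median 1.19). MMP symbols counted 5 higher and 9 lower of 16 (median -0.92).

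Of 21 intermediate filament genes, 13 rose and 6 fell (median 0.90), and Nes, nestin, a filament of progenitor and muscle cells, rose from 8.03 to 118 CPM. By symbol, 11 of 18 tested keratins rose and 6 fell, but the risers started from low levels. Krt16, a stress keratin of stratified epithelium, rose from 0.231 to 22.8 CPM, and Krt76 rose from 0.257 to 33.8 CPM against 1.26 CPM in clone 2. With a minimum count of 50 in place of 10, fewer keratins were tested and 5 rose. Of 39 actin and contractility genes, 15 rose and 19 fell. Flnc, filamin C, rose from 1.09 to 47.3 CPM, Mylk, myosin light chain kinase, from 7.004 to 65.99 CPM, and Fscn1, the actin bundler fascin, from 31.4 to 263 CPM. Tpm2, beta-tropomyosin, fell from 13.3 to 0.279 CPM.

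Receptor tyrosine kinases outside the ERBB family, which sense growth factors and collagen, rose more often than they fell. Of 21 tested, 13 rose and 7 fell, with a median of 0.82. Fgfr1 rose from 31.3 to 410.4 CPM, Ddr2, a receptor for fibrillar collagen, from 0.846 to 39.98 CPM, and Pdgfra from 7.83 to 172 CPM. Kdr, the VEGF receptor 2 of endothelium, had 0.0289, 0.0270 and 0 CPM in the control libraries and 15.3, 17.2 and 16.1 CPM in clone 1. All 3 clone 1 libraries stood above the control, and clone 2 was at 0.484 CPM. Kdr was 912-fold higher (95% counting interval 356 to 3347) in clone 1 than in the control. The endothelial marker list summed to 16.0 to 18.2 CPM in clone 1, nearly all of it Kdr, and the endothelial genes Cldn5, Erg and Tie1 had no count there.

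ERBB receptors and ligands split into 4 higher and 7 lower of 13 (median -0.10), or 5 and 6 with each chromosome centred on its median, while their summed level was 1088 CPM in the control and 1434 CPM in clone 1. Erbb2, the mouse counterpart of the Neu oncogene and named here after its values were seen, had 492, 569 and 599 CPM in the control libraries and 1001, 1042 and 1058 CPM in clone 1. All clone 1 libraries were higher (log2 fold change 0.90 ± 0.073, adjusted p = 4.41e-07, edgeR), and reads of the transgene and of the endogenous gene were not separated. Erbb3, the partner receptor of Neu, fell from 90.4 to 35.1 CPM, and the EGFR ligand gene Areg, amphiregulin, fell from 61.6 to 22.96 CPM. The ERBB3 and ERBB4 ligand genes Nrg1 and Nrg2 rose from 2.19 to 9.04 CPM and 5.93 to 21.2 CPM. Of 22 ERK targets and feedback genes, 6 rose and 15 fell (median -0.43). Dusp5, a nuclear phosphatase of ERK, fell from 81.3 to 12.5 CPM, Etv5 from 39.1 to 11.98 CPM, and Fosb, a partner in AP-1, from 10.9 to 0.412 CPM. By symbol, dual-specificity phosphatases gave 4 higher and 12 lower of 19, and Dusp9, an ERK phosphatase of the cytoplasm, rose from 0.0722 to 5.89 CPM against 0.131 CPM in clone 2.

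TGF-beta and BMP genes rose more often than they fell, with 23 higher and 9 lower of 36 (median 0.54). Chrd, chordin, which traps BMP ligands, rose from 1.45 to 74.8 CPM, and Inhbb, an activin subunit, from 3.82 to 46.7 CPM. Id4, a BMP target that blocks basic helix-loop-helix factors, rose from 3.28 to 35.8 CPM. Fst, follistatin, which neutralises activin, fell from 25.5 to 0.435 CPM. YAP, TAZ and TEAD genes showed 10 higher and 9 lower of 22, 6 higher without control replicate 1 or without control replicate 2, and 9 higher and 10 lower with each chromosome centred on its median. Ccn2 and Ankrd1, classic YAP targets, fell from 683 to 40.4 CPM and 508 to 91.4 CPM, while the receptor kinase gene Axl rose from 112 to 1028 CPM. Ccn2 was also 4.74-fold lower than in clone 2, at 193 CPM.

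Wnt and Notch genes gave mixed lists with large changes in single members. Of 31 Wnt genes, 14 rose and 14 fell. Wnt7a had 51.99, 58.5 and 56.8 CPM in the control libraries and no count in clone 1 (at least 3947-fold lower), while Wnt6 rose from 1.30 to 39.9 CPM. Rnf43, which removes Frizzled receptors from the surface, fell from 8.32 to 0.00955 CPM, and Nkd2, a feedback inhibitor, from 115 to 0.315 CPM. Of 16 Notch genes, 7 rose and 6 fell, among them Dll1 (41.6 to 1.78 CPM) and Notch3 (7.76 to 0.370 CPM), which fell, and Jag2 (3.47 to 39.4 CPM) and Notch4 (3.26 to 9.19 CPM), which rose. Guidance genes counted 22 higher and 20 lower of 45. Sema3e fell from 158 to 0.283 CPM and Epha1 from 138 to 1.47 CPM, whereas Sema3a, a repellent of axons and endothelial cells, rose from 3.79 to 61.4 CPM and was 11.7-fold higher than in clone 2.

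Acute-phase and complement genes rose in 18 of 22 tested members and fell in 3, with a median log2 fold change of 3.89, well above that of all genes. Acod1, which makes itaconate in activated macrophages, had 1.96, 1.51 and 1.71 CPM in the control libraries and 430.3, 428 and 426 CPM in clone 1. The groups were far apart, and the fold was 248.5 (adjusted p = 1.15e-13, edgeR). The leukocyte genes Ptprc and Tyrobp were at 0 in clone 1. Cd55, which shields cells from complement, fell from 5.67 CPM to no count. Toll-like receptor and NF-kB genes counted 20 higher and 15 lower of 38. Tlr1, Tlr2 and Tlr6, which act as heterodimers at the surface, rose from 0.341 to 9.82 CPM, 22.3 to 144 CPM and 5.46 to 24.4 CPM.

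Cytokines, chemokines and growth factors had 30 higher and 21 lower members of 58 (median 0.87). Vegfd, a lymphatic growth factor, rose from 0.303 to 42.1 CPM, and Angpt1, the ligand of the TIE2 receptor, from 2.56 to 125 CPM. Cxcl16, a membrane-bound chemokine, fell from 223 to 2.65 CPM. Interferon-stimulated genes fell more often than they rose, with 14 higher and 22 lower of 44 (median -0.32). Oas3, an antiviral RNA sensor, fell from 99.9 to 8.25 CPM, Usp18 from 11.4 to 0.345 CPM and Ifi44 from 6.30 to 0.0191 CPM. Of 10 guanylate-binding proteins 6 rose, and 1 fell only in the fit with a replicate block and in that without replicate 1 of every group. Gbp2 rose from 6.90 to 17.3 CPM and the Schlafen gene Slfn2 from 15.6 to 116 CPM.

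Antigen presentation genes rose in 15 and fell in 7 of 24 (median 0.59). Psmb8 and Psmb10, subunits that replace standard ones to form the immunoproteasome, rose 42.7-fold and 5.32-fold, to 8.80 and 53.4 CPM. Erap1, the peptide trimmer of the endoplasmic reticulum, rose from 25.01 to 87.1 CPM, and H2-T23, the Qa-1 molecule, from 13.8 to 38.5 CPM. The proteasome as a class moved otherwise. Of 38 tested genes with proteasome symbols, 26 fell and 6 rose (median -0.30), and 21 were lower than in clone 2 against 3 higher. The symbol rule also took Psmc3ip, which is not a proteasome subunit.

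Cytosolic ribosomal proteins fell in 30 and rose in 6 of 43 tested members, with a median log2 fold change of -0.39. Rps20 fell from 436 to 192 CPM, Rps6 from 667 to 351 CPM and Rpl11, which also binds MDM2, from 238 to 123 CPM. Mitochondrial ribosomal proteins fell in 41 and rose in 20 of 77, and 45 were lower than in clone 2 against 7 higher. Mitosis genes fell in 19 and rose in 4 of 35 (median -0.24). The number that rose was 8 with a replicate block, 7 without control replicate 1 and 8 without replicate 1 of every group. Aurka, the Aurora A kinase of spindle poles, fell from 174 to 89.9 CPM, Ube2c, which helps the anaphase-promoting complex, from 276 to 140.4 CPM, and Mybl2, a driver of mitotic genes, from 128 to 58.1 CPM. S phase genes counted 12 higher, 17 lower and 11 not past the test of 40, with a median of -0.03.

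Arrest and death genes held a few large rises. Of 33 genes of cyclins, CDK inhibitors and the p53 axis, 10 rose and 15 fell. Gadd45a, a stress gene that p53 induces, rose from 2.63 to 34.9 CPM, Sesn1 from 13.2 to 48.2 CPM and the death receptor gene Fas from 11.2 to 59.3 CPM. Tigar, a p53 target that slows glycolysis, fell from 26.1 to 5.14 CPM while clone 2 had 22.5 CPM. Apoptosis regulators counted 13 higher and 17 lower of 33. Inflammatory caspases rose, with Casp1 from 19.2 to 229 CPM, Casp4 from 3.44 to 29.1 CPM and Casp12 from 9.43 to 105 CPM.

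Lipid genes fell more often than they rose in clone 1. Of 25 genes of cholesterol synthesis and uptake, 17 fell and 6 rose (median -0.87). Cyp51, which removes a methyl group of lanosterol, had 340.1, 348 and 338 CPM in the control libraries and 89.6, 84.8 and 87.1 CPM in clone 1. The groups did not overlap, and clone 1 was 3.93-fold lower (adjusted p = 6.15e-12, edgeR), whereas Abca1, the exporter of cholesterol, rose from 2.39 to 86.8 CPM. Fatty acid and lipid droplet genes fell in 21 and rose in 13 of 38 (median -0.40). Fads2 and Fads1, the desaturases that make arachidonic and docosahexaenoic acid, fell from 389.6 to 0.0734 CPM and 128 to 0.460 CPM. They are neighbours on chromosome 19, and clone 2 had 0.0217 CPM of Fads2 but 35.6 CPM of Fads1. Mgll, a lipase that frees fatty acids and breaks down an endocannabinoid, rose from 0.763 to 49.6 CPM.

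Amino acid stress and unfolded protein genes rose in 26 and fell in 5 of 37 (median 0.62). Phgdh, the first enzyme of serine synthesis, rose from 99.3 ± 9.40 to 588 ± 35.2 CPM, and Aldh1l2, a mitochondrial folate enzyme, from 2.51 to 59.8 CPM. Herpud1, which works in disposal of misfolded proteins from the endoplasmic reticulum, rose from 41.5 to 313 CPM, and the chaperone gene Dnajc3 from 44.5 to 178 CPM. Glycolysis and hypoxia genes gave 21 higher and 17 lower of 40 (median 0.17), with 10 higher and 8 lower by at least 2-fold. Egln3, a prolyl hydroxylase of HIF that HIF induces, fell from 38.05 to 0.0364 CPM, Adm, adrenomedullin, from 24.0 to 1.28 CPM and Aldoc from 7.69 to 0.307 CPM. Respiratory chain genes rose in 21 and fell in 11 of 40 by small amounts (median 0.15). Ppargc1a and Ppargc1b, coactivators of mitochondrial genes, rose from 2.02 to 6.43 CPM and 0.499 to 8.79 CPM. Glutathione, NRF2 and selenoprotein genes were split, with 17 higher and 21 lower of 42.

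**Figure D2:**
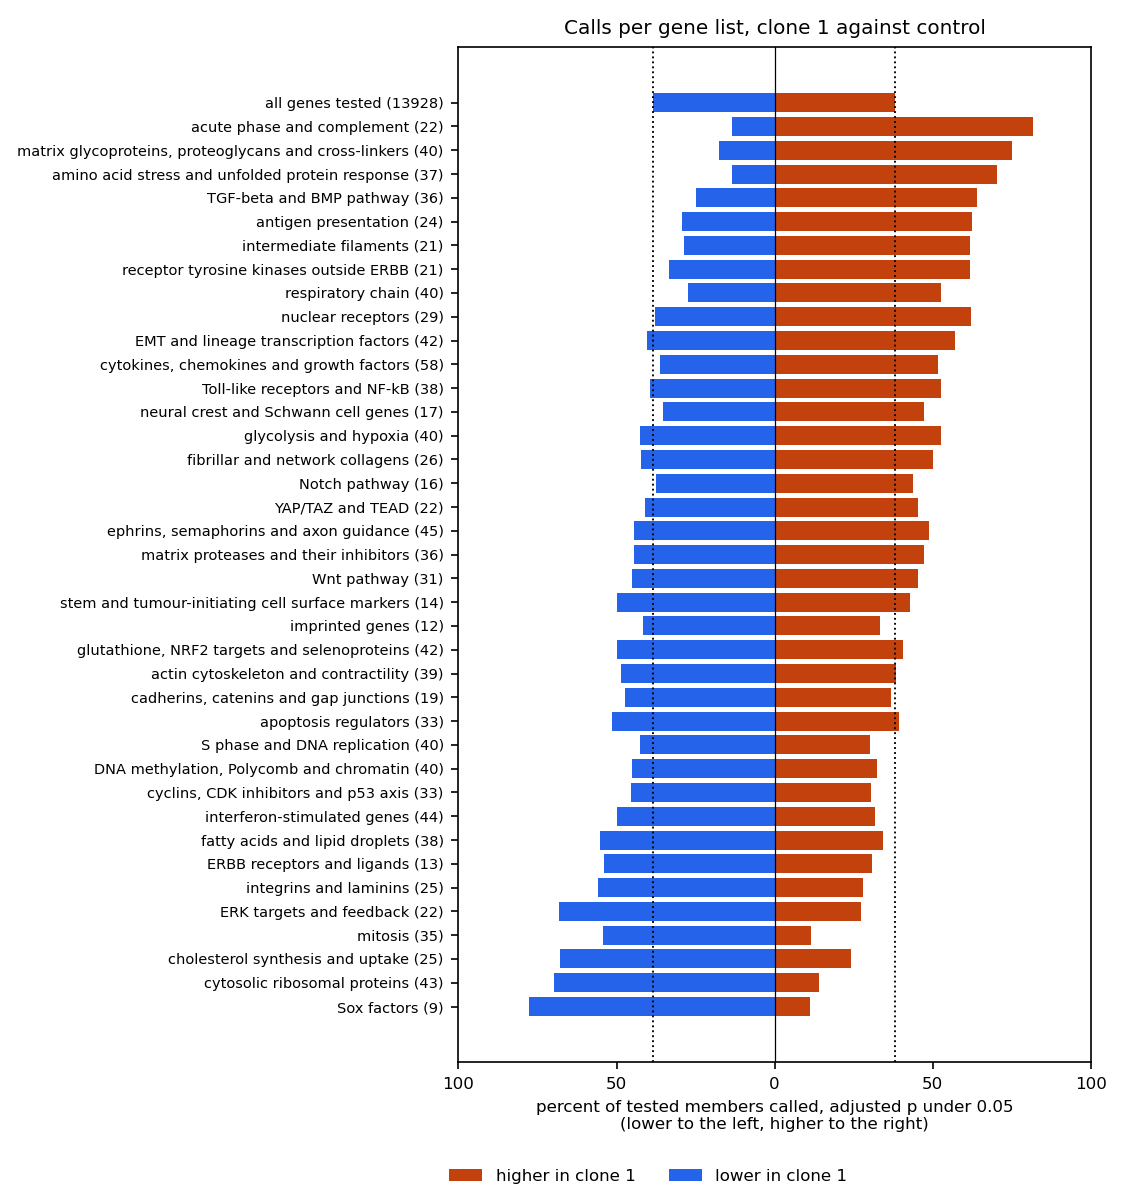
Percent of tested members of each gene list called higher (orange, right) or lower (blue, left) in clone 1 than in the control at an adjusted p under 0.05, with the number tested in parentheses. Dotted lines mark the shares of all tested genes, 37.9% higher and 38.6% lower. Acute phase and complement genes lie farthest to the right and Sox factors, which include the targeted Sox10, farthest to the left.

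Transcription factors of several families changed level. Of 9 tested Sox genes, 7 fell and 1 rose, and those that fell include Sox10, the targeted gene. Sox13 fell from 14.6 to 0.00955 CPM and Sox4 from 143 to 76.9 CPM, while Sox9, a factor of mammary progenitors and cartilage, rose from 64.7 to 154 CPM. Factors of epithelial-mesenchymal transition and lineage counted 24 higher and 17 lower of 42 (median 0.60). Eya1, a transcriptional coactivator of organ buds, fell from 5.90 CPM to no count. Osr1, a factor of kidney and limb mesenchyme, fell from 92.3 to 0.104 CPM and Msx2 from 5.19 to 0.00437 CPM. Hox genes counted 2 higher and 7 lower of 10, with Hoxa7 at 15.8 CPM in the control and no count in clone 1, and Hoxb4 rising from 0.117 to 6.62 CPM. Foxj1, the master factor of motile cilia, fell from 49.3 to 0.0984 CPM.

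Nuclear receptors rose in 18 and fell in 11 of 29 (median 0.33). Rora, a circadian regulator, and Nr1h3, the oxysterol receptor LXR alpha, rose from 0.779 to 11.6 CPM and 1.99 to 18.6 CPM. KLF and SP symbols rose in 15 and fell in 3 of 21. The symbol rule takes any name that starts with Klf or Sp and a digit, so genes outside the family may be counted. Klf2, a factor of quiescent cells, rose from 3.75 to 24.6 CPM, while Klf12 fell from 5.29 to 0.0994 CPM. Of 40 chromatin genes, 13 rose and 18 fell. Tet2, which oxidises methylcytosine, rose from 7.59 to 47.05 CPM and Bmi1, a Polycomb subunit, from 38.9 to 112 CPM, while the chromatin architecture gene Hmga1 fell from 310.3 to 144 CPM.

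Neural crest and Schwann cell genes did not move as 1 group, with 8 higher and 6 lower of 17. L1cam, an adhesion protein of axons, and Ngfr, the p75 neurotrophin receptor, had 13.4 and 7.32 CPM in the control and no count in clone 1. Pmp22, a myelin protein that many cells make, rose from 16.4 to 424 CPM. Of 344 Zfp zinc finger genes, 172 rose and 93 fell (median 0.39), and 114 were higher than in clone 2 against 39 lower. Of all 13928 tested genes, 3827 were higher than in clone 2 and 4191 lower. Zfp469, a regulator of corneal matrix, fell from 53.7 to 3.96 CPM.

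Genes of membrane transport and adhesion also differed by class. Of 234 solute carrier genes, 112 rose and 65 fell. Potassium channel symbols counted 17 higher and 9 lower of 30, or 11 higher with a minimum count of 50, and this class includes the noncoding RNA Kcnq1ot1. Kcnj2, an inward rectifier, fell from 14.7 to 0.0276 CPM, and Kcnip3 rose from 0.123 to 11.6 CPM. Abcb1b, the drug efflux pump P-glycoprotein, rose from 2.51 to 102 CPM. Protocadherins rose in 20 and fell in 3 of 27 (median 2.32), with 12 higher at a minimum count of 50, where fewer were tested. Pcdh19 rose from 2.27 to 69.7 CPM. Alpha and gamma protocadherins share their last exons within a cluster, so the split of reads among them is uncertain. E-cadherin (Cdh1) fell from 341 to 43.1 CPM, but T-cadherin (Cdh13), which lacks a cytoplasmic tail, rose from 65.4 to 316 CPM, and clone 2 had 95.9 CPM of Cdh13.

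Clone 1 was then set against clone 2, from which it differed in 57.6% of tested genes (8018). Genes set apart in clone 1, called and at least 2-fold from both the control and clone 2 in the same direction, numbered 495 higher and 531 lower, 3.55% and 3.81% of those tested. The 2 contrasts behind the set-apart counts share the clone 1 libraries. The genes described below were ranked by the smaller of the 2 log2 differences, so their sizes describe how they were chosen.

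Adhesion, channel and growth-factor genes led those higher in clone 1. Sdk1, an immunoglobulin-type adhesion molecule of synapses, had no count in any control or clone 2 library and 12.98, 12.96 and 12.9 CPM in the clone 1 libraries. It was at least 968-fold higher than the control. Igf2, an imprinted fetal growth factor, had 0.506, 1.05 and 0.667 CPM in the control libraries, 53.2, 57.5 and 57.4 CPM in those of clone 1 and 1.07, 0.927 and 1.37 CPM in those of clone 2. Only the clone 1 libraries were high, and the log2 difference from clone 2 was 5.64 ± 0.19 (adjusted p = 1.43e-09, edgeR). In the imprinted list as a whole, 4 of 12 rose and 5 fell. Phlda2, an imprinted gene that limits placental growth and lies in the same chromosome 7 region, went from 7.62 CPM to no count.

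Gpnmb, a glycoprotein of lysosomes and melanosomes, had 0, 0.0270 and 0.0494 CPM in the control libraries, 51.8, 61.6 and 54.8 CPM in clone 1 and 0.276, 0.185 and 0.294 CPM in clone 2. The clone 1 libraries stood clear of the other 6. The melanocyte enzymes Dct, Tyr and Tyrp1 had no count in clone 1 or in the control. The melanocyte list of 6 markers summed to 4.9 to 5.3 CPM in the control and 16.7 to 17.7 CPM in clone 1. Of its 3 tested members, 1 rose and 1 fell. Abcc9, the sulfonylurea receptor of vascular potassium channels, had 28.9 ± 1.23 CPM in clone 1 against 0.126 CPM in the control and 0.0711 CPM in clone 2. It is also a pericyte marker, and that list summed to 8.08 to 12.7 CPM in the control and 32.2 to 33.9 CPM in clone 1, most of it from Abcc9. Rspo3, a secreted enhancer of Wnt signalling, had 14.9 ± 0.888 CPM in clone 1, 0.253 CPM in the control and 0.203 CPM in clone 2. Ptpru, a receptor phosphatase, had 9.42 CPM, Pcdh9, a protocadherin, 14.1 CPM, Epdr1, a lysosomal ependymin relative, 9.38 CPM and Ccdc3, a secreted protein, 33.2 CPM in clone 1, all under 1 CPM elsewhere. Kng2, Klhl4 and Ppp1r14c completed the 12.

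Metabolic and epithelial surface genes led those lower in clone 1. Cdcp1, a transmembrane substrate of SRC kinases, had 173, 177 and 175 CPM in the control libraries and 7.85, 7.68 and 7.37 CPM in clone 2 but no count in clone 1. Clone 2 lay between the others, and clone 1 was at least 12369.8-fold lower than the control. Wfdc2 kept 239 ± 5.92 CPM in clone 2 while clone 1 was at trace level, 3893-fold lower. Fads1 was 77.6-fold lower in clone 1 than in clone 2. Bckdhb, a subunit of the enzyme that breaks down branched-chain amino acids, had 26.97, 30.9 and 27.4 CPM in the control libraries, 0, 0 and 0.0287 CPM in those of clone 1 and 20.1, 20.6 and 17.4 CPM in those of clone 2. The clone 1 libraries stood far below the other 6.

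Ifnlr1, the receptor for type III interferon on epithelia, had 21.1 ± 0.417 CPM in control cells, against 0.326 ± 0.00942 CPM in clone 1 and 9.88 ± 0.190 CPM in clone 2. Smoc1, a matricellular antagonist of BMP, had 8.29, 0.197 and 6.56 CPM in the same order. Pdgfrl had 13.7, 0.151 and 13.6 CPM, and Paqr8, a membrane progesterone receptor, had 6.26, 0.270 and 6.41 CPM. For these 4 genes the clone 1 level was a small part of both others. Mcpt8, a protease of basophils, had 255, 276 and 264 CPM in the control libraries, 0.121, 0.105 and 0.115 CPM in clone 1 and 10.6, 11.7 and 11.5 CPM in clone 2. Immune markers were low in all control libraries, as given above. Slc35g1, Hebp1, a heme-binding protein, and Urah made up the rest, with Slc35g1 at 17.6 CPM in the control and 10.9 CPM in clone 2 and Hebp1 at 6.69 and 8.20 CPM.

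**Figure D3:**
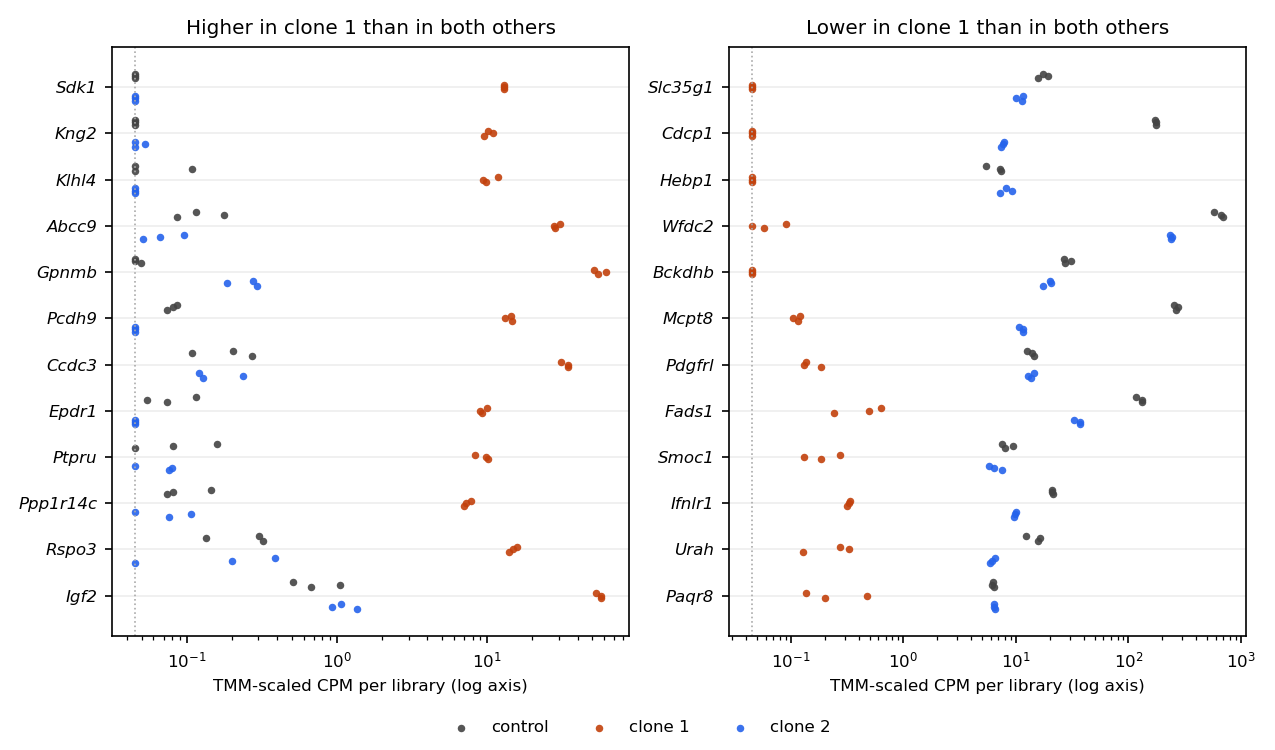
TMM-scaled CPM (log axis) of the 12 higher and 12 lower genes chosen as set apart in clone 1, with 1 point per library for the control (grey), clone 1 (orange) and clone 2 (blue). Values at or below 3 counts in the shallowest library are drawn at the dotted line; the 3 clone 1 points lie apart from the other 6 in each row.

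Some genes of the pathway lists also separated the clones. Aldh1a1, which makes retinoic acid and marks some stem cells, had 23.5, 23.8 and 24.7 CPM in the control libraries, 147, 149 and 150.1 CPM in clone 1 and 23.9, 22.8 and 23.8 CPM in clone 2. Control and clone 2 overlapped in level and clone 1 was above both, 6.32-fold higher than clone 2. Angpt1 was 7.41-fold higher and Vcan 3.85-fold higher than in clone 2, while both had risen from the control. Col6a1 and Col6a2 were 3.03-fold higher and 3.29-fold higher than in clone 2. In the other direction, Selenop, the plasma carrier of selenium, was at 304 CPM in clone 1 and 736 CPM in clone 2.

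Differences were unevenly spread over the chromosomes. The median log2 difference between clone 1 and the control was 0.61 over 461 tested genes of chromosome 14, 0.51 over 658 of chromosome 3 and 0.41 over 671 of chromosome 10. It was -0.49 over 848 genes of chromosome 4, -0.45 over 500 of chromosome 19 and -0.43 over 1079 of chromosome 7. On chromosome 14, 309 genes rose and 87 fell, and on chromosome 4, 156 rose and 545 fell. These shifts were shared by clone 2. Its medians against the control were 0.48, 0.41 and 0.39 on chromosomes 14, 3 and 10. On chromosomes 4, 19 and 7 they were -0.53, -0.46 and -0.42. Single control libraries gave chromosome medians between -0.074 and 0.055. Against clone 2, the largest median was 0.62 on chromosome 13 (550 genes), where clone 1 minus control was 0.17 and clone 2 minus control was -0.48. Shifts on chromosomes 1 (811 genes) and 6 (682 genes) were not shared. Clone 1 minus control was -0.29 and -0.24 there, and clone 2 minus control was 0.05 and 0.09. Copy number was not measured in these files.

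Centring each chromosome on its own median moved some lists. Cytosolic ribosomal proteins then had 3 higher members in place of 6. Mt1 and Mt2 lie on chromosome 8, whose median was 0.35, against log2 changes of 4.03 and 4.42. Fads1, Fads2 and Fth1 lie on chromosome 19, whose median was -0.45, and Fth1 rose against it.

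**Figure D4:**
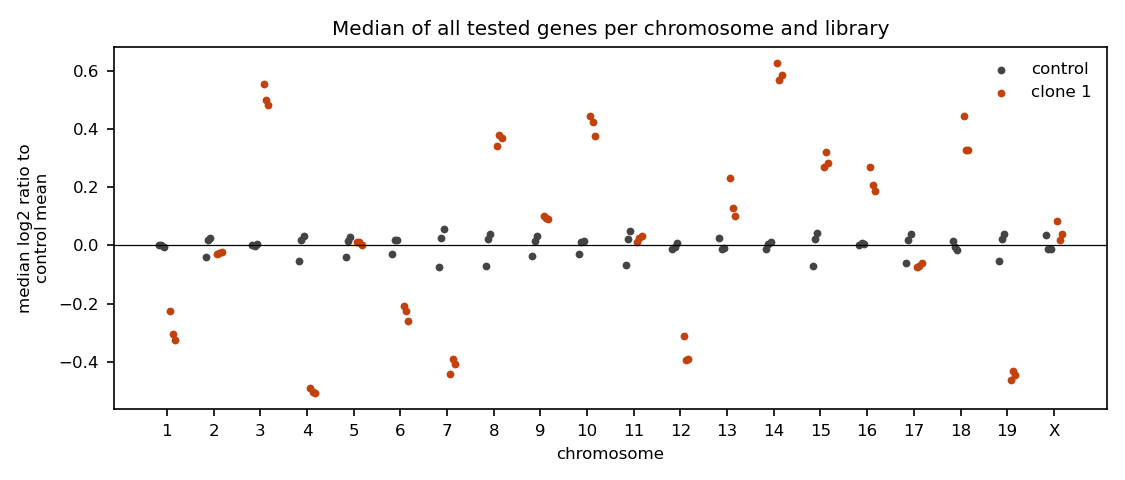
Median log2 ratio to the control mean of all tested genes on each chromosome, with 1 point per library for the control (grey) and clone 1 (orange). The control points lie between -0.074 and 0.055, while the clone 1 medians of chromosomes 3 and 14 lie above and those of chromosomes 4, 7 and 19 below all control points.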

How the data were processed

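Stranded polyA RNA of 9 libraries was compared as gene-level counts. The deposited values are raw counts per gene (whole numbers, Entrez identifiers), and the submitters' processing notes name fastp, Subread, DESeq2 and the builds mm10 and GRCm38. No versions, annotation or strand setting were given in these sources. Symbols and positions came from RefSeq tables of GRCm38.p6, which matched 24570 of 24594 identifiers, and the 24 others took 0.130 to 0.202% of a library's counts. Each library held 65805296 to 83282841 counts.

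Counts were analysed with edgeR 4.0.16 in R 4.3.3: filterByExpr with a minimum count of 10, TMM scaling, and 1 quasi-likelihood fit of the 3 groups with no covariate. A gene was called at an adjusted p (Benjamini-Hochberg) under 0.05. Standard errors are the absolute log2 fold change over the square root of F. The fit was run on simulated data, where it made 187 calls, 4 of them false. The simulation had far fewer changed genes and no effects shared between same-numbered libraries, so it could not check those conditions. Where a group had no count, the fold was computed at a floor of 3 counts over its libraries and is given as "at least". A fold printed against a group with 1 to 9 counts carries a 95% counting interval, and levels are printed without one. In the set-apart genes a difference was at least 2-fold from both other groups.

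Gene lists, symbol classes and the gene comparison itself were chosen with earlier results of these data known. Named genes were Sox10, the 12 largest rises and falls in mean CPM, the 12 higher and 12 lower set-apart genes with at least 5 CPM, up to 4 members per list and 2 per class by log2 fold change, and the 10 largest folds in each direction. Predicted gene models were left out, and a few named by these rules are not reported here but stay in all counts. Replicate numbers recur in all groups, and deviations of same-numbered libraries correlated at 0.64, 0.25 and 0.38 between control and clone 1, and all other same-numbered pairs between groups above 0.1, so the numbers were taken to pair the libraries. Replicates 2 and 3 were not told apart by this check, since control 2 correlated with clone 1 replicate 3 at 0.39 and control 3 with clone 1 replicate 2 at 0.30. A fit with a replicate block was an alternative, as were DESeq2 1.42.0, other scalings and filters, leaving out each replicate, and centring by chromosome. P-values and counts came from the fit without that block, which ignores the pairing, unless a setting is named.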

Additional observations from a re-analysis of the deposited data

Results flagged for a closer look

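For 3 named genes the clones moved in opposite directions from the control, and the difference between them passed a test against a log2 threshold of 1 (edgeR glmTreat, adjusted p given). The protocadherin gene Pcdh9 had a log2 fold change of 7.42 in clone 1 and -5.62 in clone 2, a difference of 13.04 (adjusted p = 2.95e-09). Epdr1, an ependymin-related lysosomal gene, had 6.84 in clone 1 and -5.62 in clone 2, a difference of 12.45 (adjusted p = 2.53e-08). Their mean levels were 0.0806 and 0.0813 CPM in the control and 14.1 and 9.38 CPM in clone 1. Both had no count in clone 2, so the fitted values of clone 2 and the differences are no measured sizes. Gbp9, a guanylate-binding protein, had 18.4, 15.8 and 17.5 CPM in the control libraries, 33.2, 31.03 and 28.4 CPM in clone 1 and 6.07, 3.96 and 4.96 CPM in clone 2. Its log2 fold changes were 0.84 and -1.78, a difference of 2.63 (adjusted p = 1.02e-06). The comparisons share the control libraries.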

How the results depend on the processing

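The 9 counts over all genes (called, higher, lower, past glmTreat, at least 2-fold each way, different from clone 2, set apart each way) moved by less than 1.5 times, and 4914 values of named genes kept direction and call, under every alternative that was run. These were DESeq2, RLE or total-count scaling, no filter, a minimum count of 50, the 6 libraries alone, the replicate block, each library left out and, added after seeing the data, replicate 1 left out of every group and centring by chromosome, which among these 9 was computed only for the higher, lower, 2-fold and set-apart counts. Centring shifted only the fold changes and kept the adjusted p of the main fit, so it could not change a call. Most named genes were picked as called genes with large changes in these same data, which favours such stability. With the replicate block 11420 genes were called. It moved the mitosis genes that rose to 8 and the guanylate-binding proteins that fell to 1, and changed no other count by over 1.5 times. With a minimum count of 50, higher members numbered 11 potassium channels, 1 Hox gene, 12 protocadherins, 13 serpins and 5 keratins, and lower members 5 chemokines, 4 S100 proteins and 6 histones, with fewer genes tested. Without a filter 2 claudins were higher. Centred by chromosome, 3 listed ribosomal proteins, 7 ribosomal protein symbols (which include the Rps6ka kinases) and 4 histones were higher. With libraries left out, higher members ranged from 6 to 10 for YAP, TAZ and TEAD, 4 to 8 for mitosis, 1 to 2 for claudins and 2 to 4 for tetraspanins, and lower guanylate-binding proteins from 0 to 1. The cause was not tested. Chromosome medians moved by over 1 SD of the clone 1 libraries in 78 comparisons and by less in 262. Low genes are limited by depth: 3 counts over clone 1 were 0.0142 CPM.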
